A study of Rattus norvegicus with 6 samples.

Results

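The genes described here are Agt, which encodes angiotensinogen, and Agtr1a, which encodes the angiotensin type 1a receptor, measured in the hypothalamic paraventricular nucleus of control and sodium-depleted rats. They were chosen by identifier, ENSRNOG00000018445 for Agt and ENSRNOG00000018346 for Agtr1a, and are 2 of the 32402 genes in the deposited table. Both were among the 16344 genes left after a filter on low counts. The deposited table carries no symbols, so these 2 pairings of identifier and symbol are taken as assigned and were not checked against an annotation.

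Angiotensinogen is the only known precursor of the angiotensin peptides: renin cuts angiotensin I from it, and angiotensin-converting enzyme turns that into angiotensin II. In the brain it is made mainly by astrocytes. Angiotensin II acts through the type 1 receptor, a Gq-coupled receptor, to drive thirst, sodium appetite, vasopressin release and sympathetic outflow. In the paraventricular nucleus of rodents the 1a form of the receptor is found on neurons that make corticotropin-releasing hormone, among others. Rodents carry a closely related gene, Agtr1b, whose transcripts resemble those of Agtr1a.

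The animals were male Holtzman rats, a laboratory stock, with no genetic alteration named and no age given in the labels. The furosemide group received one acute injection of this loop diuretic, which makes the kidney lose sodium, at 10 mg/kg, and for the following 24 h had food poor in sodium and distilled water to drink. The control group is labelled only as control, and what those rats were injected with, fed and given to drink is not given in the labels. Each group had 9 rats whose tissue was joined into 3 pools of 3 rats, and each pool gave 1 library, so n = 3 per group and differences between single rats are averaged within a pool.

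Control libraries held 20911950 to 21669388 counts, and furosemide libraries 21950410 to 22495415. All totals of the furosemide group lay above all control totals, and counts were scaled for this before any comparison. Levels are in CPM, the counts of a gene per 1000000 counts of its library after TMM scaling, a correction for differences in library composition. In a bulk tissue sample, fewer cells of a type and less RNA per cell cannot be told apart. Markers of astrocytes, of paraventricular neurons and of neighbouring regions were not examined, because identifiers were not paired with symbols in the sources used here. The labelled tissue was therefore not checked against its markers, and the part of cell composition or dissection in the values below was not tested.

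The precursor gene Agt was counted deeply. The control libraries held 20548, 20189 and 19415 Agt counts, and the furosemide libraries 22220, 22558 and 23849. As levels these were 952, 934 and 935 CPM in control 1, 2 and 3, and 989, 1031 and 1067 CPM in furosemide 1, 2 and 3. Every furosemide library thus lay above every control library, with 36.8 CPM between the highest control and the lowest furosemide value. The control libraries stood close together, and the furosemide libraries were more spread out, with furosemide 3 the highest and furosemide 1 the nearest to the controls.

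Agt averaged 941 ± 10.3 CPM in the control group and 1029 ± 39.1 CPM in the furosemide group (SD, n = 3 each). This corresponds to a log2 fold change of 0.13 (standard error 0.03, 95% confidence interval 0.06 to 0.20). The level was thus 9.42% higher after furosemide, with an interval of 3.92% to 15.2%. In the edgeR quasi-likelihood test, which asks whether a gene differs between groups beyond the spread among libraries, the unadjusted p was 0.00223. Adjusted over all 16344 genes by the Benjamini-Hochberg method it was 0.347, so Agt did not pass the threshold of 0.05. An exact permutation of the libraries, two-sided on log2 CPM, gave p = 0.1, and no smaller p is possible with 3 against 3.

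**Figure D1:**
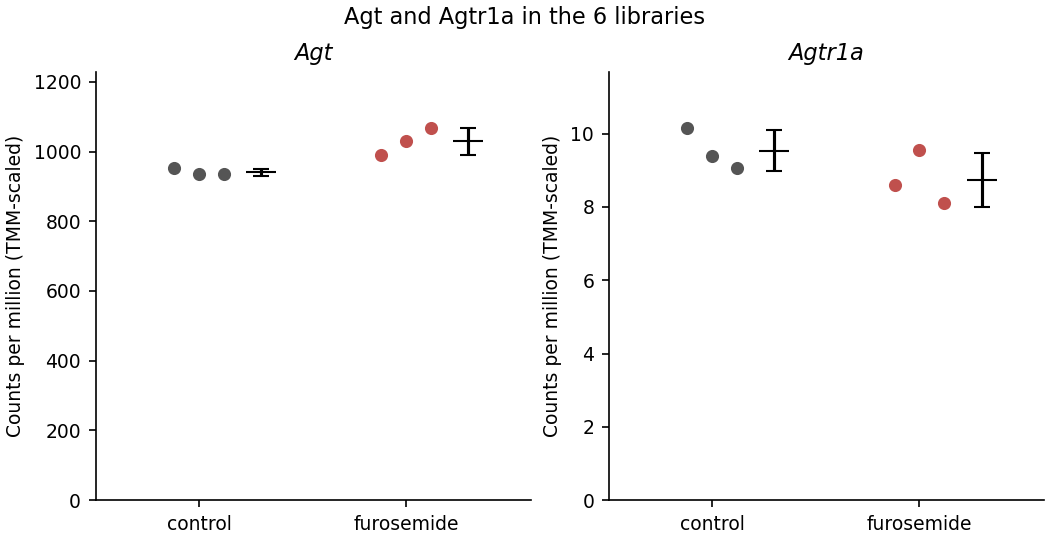
Level of Agt (left) and Agtr1a (right) in CPM on linear axes that start at 0, with 1 point per library (replicates 1 to 3 from left to right) and, beside the points, the group mean with its SD (n = 3). The furosemide points of Agt, 989 to 1067 CPM, all lie above the control points, 934 to 952 CPM, while the points of Agtr1a overlap between groups.

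This separation has to be read against the whole table. Groups that did not overlap, with all furosemide libraries above all controls, were found for 1094 of the 16344 genes, or 6.69%. An unadjusted p under 0.05 in either direction was reached by 1322 genes, or 8.09%, and Agt stood 98th in the order of p. Among the 2231 genes averaging 100 CPM or more, the share with an unadjusted p under 0.05 was 10.4%, and 7.04% had all furosemide libraries above all controls. In that stratum Agt was 25th by p, and 51 genes (2.29%), Agt included, had a log2 fold change at least as large in size. The median absolute log2 fold change of the stratum was 0.03. The difference in Agt was thus small in size and large beside those of most deeply counted genes.

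No gene passed the adjusted threshold in the quasi-likelihood test, in either direction (0 higher and 0 lower, 0%). Agt was among the 40 genes that DESeq2 called, 0.365% of the 10957 genes to which it gave an adjusted p. Its log2 fold change there was 0.13 with a DESeq2 adjusted p of 0.0409. That call was lost when any 1 of 5 libraries was left out, with DESeq2 adjusted p-values of 0.102, 0.398 and 0.891 without control 1, 2 and 3, and of 0.815 and 0.443 without furosemide 2 and 3. It held without furosemide 1, at an adjusted p of 0.0261. Across these fits the log2 fold change of Agt ran from 0.10, without furosemide 3, to 0.16, without furosemide 1. Its unadjusted DESeq2 p ran from 1.13e-05, without furosemide 1, to 0.00317, without furosemide 3. The number of genes called by DESeq2 changed as well: omitting control 1 left 33 calls, control 2 left 14 and control 3 left 4, while omitting furosemide 1 left 12, furosemide 2 left 1 and furosemide 3 left 21. The edgeR exact test called 45 genes (0.275%) and gave Agt an adjusted p of 0.158, and limma-voom with sample quality weights gave 0.246.

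**Figure D2:**
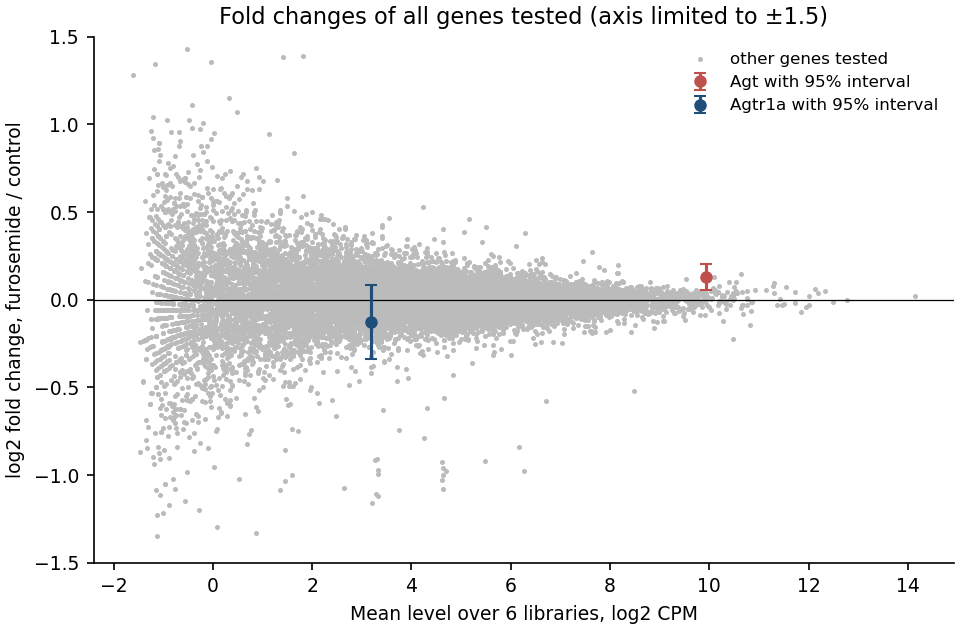
Log2 fold change, furosemide over control, against mean log2 CPM for the 16344 genes tested (grey), with Agt (red) and Agtr1a (blue) and their 95% confidence intervals from the quasi-likelihood fit; the vertical axis stops at 1.5 in either direction, which leaves out 2 genes. Agt, at 0.13, lies near the upper edge of the narrow band of deeply counted genes, and Agtr1a, at -0.12, lies within the broader band at its level.

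The receptor gene Agtr1a was counted far less deeply. The control libraries held 219, 203 and 188 Agtr1a counts, and the furosemide libraries 193, 209 and 181. The levels were 10.2, 9.40 and 9.05 CPM in control 1, 2 and 3, and 8.59, 9.55 and 8.10 CPM in furosemide 1, 2 and 3. The groups overlapped: furosemide 2 lay above control 2 and control 3, while the other two furosemide libraries lay below all controls. Of the 9 pairs of a furosemide with a control library, 7 had the lower value in the furosemide library.

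Agtr1a averaged 9.53 ± 0.563 CPM in the control group and 8.75 ± 0.737 CPM in the furosemide group (SD, n = 3 each). This corresponds to a log2 fold change of -0.12 (standard error 0.10, 95% confidence interval -0.34 to 0.09). Agtr1a did not pass the test, with an edgeR quasi-likelihood p of 0.226 (adjusted p = 0.805), and p was 0.3 in the two-sided exact permutation test. The interval runs from a level 20.8% lower to one 6.19% higher after furosemide. A fold change of 1.5 in either direction therefore lies outside it. Smaller differences within it, on average over the pooled tissue, remain possible with n = 3 per group at this depth. Reads that Agtr1a shares with its relative Agtr1b may have been dropped or counted for either gene. The row is uncertain to that extent: the sources used here do not state how the counting treated them.

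The precision of the 2 genes had different limits. A count of 181, the lowest of Agtr1a, has a 95% Poisson interval of 156 to 209, and the highest, 219, one of 191 to 250, so the counting intervals of the extreme libraries overlapped. Counting alone gives Agtr1a a coefficient of variation of 6.76% to 7.43% per library. The observed coefficient of variation was 5.90% in controls and 8.42% after furosemide, so the spread among pools was about that of counting. For Agt, counting gives 0.648% to 0.718%, and the observed values were 1.10% in controls and 3.80% after furosemide. The variance of Agt counts was 2.43 times that of counting in controls and 33.2 times after furosemide, so the spread among pools, not depth, limits its precision. These intervals cover counting error only. The biological coefficient of variation that edgeR estimated for the gene was 3.27% for Agt and 6.26% for Agtr1a, against a median of 5.19% over all genes tested. This estimate is drawn towards the trend of genes at the same level, 3.53% for Agt and 7.34% for Agtr1a. The quasi-likelihood fit itself took the trend values. The estimate is not the gene's own spread beyond counting: for Agtr1a the variance within groups was 1.04 times that of counting.

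Precursor and receptor were also compared within each library, where scaling of the library cancels. The count of Agt per count of Agtr1a was 93.8, 99.5 and 103 in control 1, 2 and 3, and 115, 108 and 132 in furosemide 1, 2 and 3. This ratio depends on transcript length and is used only for its change between groups. All 3 furosemide values lay above all 3 control values, with furosemide 3, the library highest for Agt and lowest for Agtr1a, standing highest. This separation is not independent of that of Agt, whose levels alone already separated the groups. How often the ratios of other gene pairs separate the groups was not examined. On the log2 scale the ratio was 6.63 ± 0.07 in the control group and 6.88 ± 0.15 in the furosemide group (SD, n = 3 each), a difference of 0.25. Its p was 0.1 in the two-sided exact permutation test, again the lowest possible. Adjusted over the 3 exact tests made, by the Benjamini-Hochberg method, the p-values were 0.15 for Agt, 0.3 for Agtr1a and 0.15 for the ratio. The design thus does not show that the 2 genes differed in their response.

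**Figure D3:**
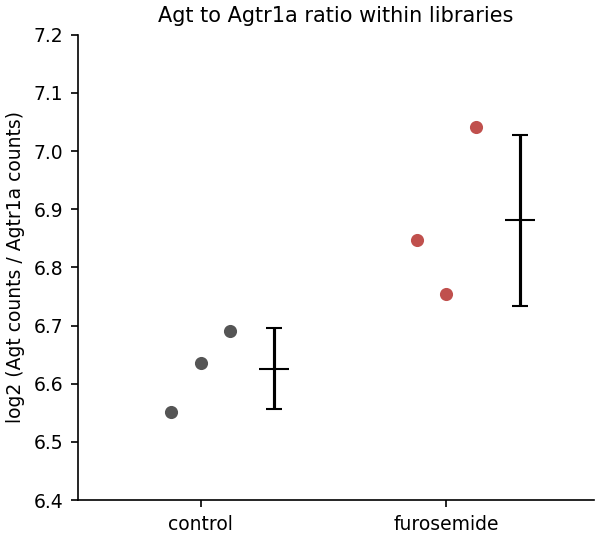
Log2 of Agt counts over Agtr1a counts in each library, with the group mean and SD (n = 3) beside the points; the vertical axis does not start at 0. The furosemide libraries lie above the controls, with a difference of means of 0.25.

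Both estimates kept their sign in all 18 other analyses made of them, while their size depended on single libraries. For Agt, whose groups did not overlap, that was to be foreseen whatever the analysis. The log2 fold change of Agt lay between 0.10, without furosemide 3, and 0.16, without furosemide 1. That of Agtr1a lay between -0.19, without furosemide 2, and -0.07, without furosemide 3, and it was -0.08 without control 1. Its lowest adjusted p in any of them was 0.762, in edgeR without furosemide 2.

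**Figure D4:**
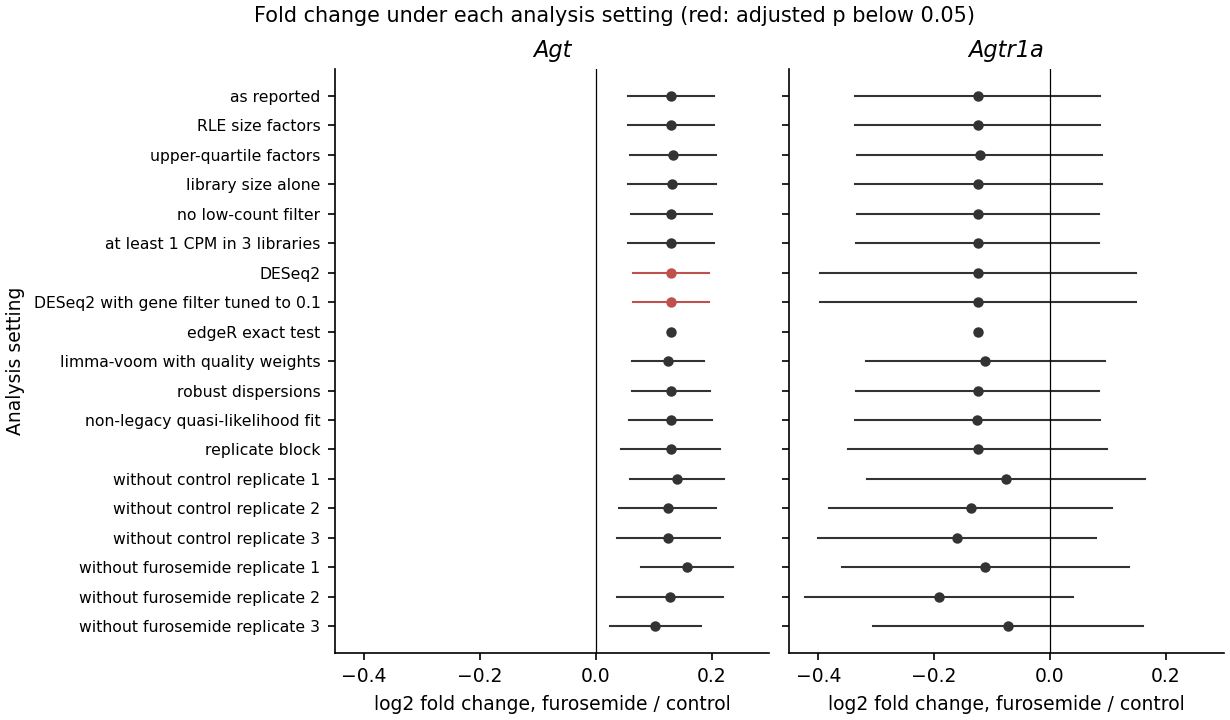
Log2 fold change of Agt (left) and Agtr1a (right) with 95% confidence intervals (none is given by the edgeR exact test) in the reported fit and 18 other analyses, with red for an adjusted p under 0.05. The Agt intervals lie above 0 in every setting that gives one, with red only for DESeq2, and every Agtr1a interval crosses 0.

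The genes whose levels followed each of the 2 most closely were looked up among those averaging 10 CPM or more, by Pearson correlation of log2 CPM over the 6 libraries. For Agt the closest were ENSRNOG00000030614 (r = 0.995) and ENSRNOG00000010765 (r = 0.990), and 104 of 10655 genes had an r of 0.9 or more. In control and furosemide libraries respectively, ENSRNOG00000030614 averaged 19.5 ± 0.227 and 21.8 ± 0.894 CPM, and ENSRNOG00000010765 70.4 ± 1.18 and 76.7 ± 2.16 CPM (SD, n = 3 each). For Agtr1a the closest were ENSRNOG00000026517 (r = 0.983) and ENSRNOG00000016272 (r = 0.982), and 74 of 10656 genes had an r of 0.9 or more. In the same order, ENSRNOG00000026517 averaged 22.4 ± 0.946 and 21.4 ± 0.936 CPM, and ENSRNOG00000016272 102 ± 2.07 and 98.7 ± 2.57 CPM (SD, n = 3 each). None of these genes passed the adjusted threshold in the edgeR quasi-likelihood test. They were picked by correlation over both groups together, so a group difference in the same direction largely follows from that choice. The points share their libraries and scaling, and with 6 libraries and so many genes searched such high values are to be found for many patterns, so they are a description only.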

How the data were processed

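RNA was sequenced from 6 libraries, each a pool of tissue from 3 rats. The values deposited by the authors are raw counts of reads for each gene, as whole numbers. Per the submitters' processing notes the tools were FastQC, TopHat, HTSeq and edgeR, with no version stated. The sources used here give no genome build, annotation or strand setting, so coordinates are left out and reads of overlapping or antisense genes cannot be separated. Libraries came from poly(A)-selecting TruSeq mRNA kits per the labels' protocols.

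Genes were kept by filterByExpr of edgeR 4.0.16 (R 4.3.3), scaled by TMM and tested with glmQLFit and glmQLFTest, group as the only term. Adjusted p-values cover all 16344 genes. Standard errors are the log2 fold change divided by the root of F, without its sign. The code of the fit was run on simulated data as a check, which does not bear on the results for Agt or Agtr1a. Alternatives were the edgeR exact test, DESeq2 1.42.0, voom with sample quality weights in limma 3.58.1, other scalings, filters and dispersions, a replicate block and leaving out each library. Labels give no dates or batches. The quasi-likelihood p-values set the difference between groups against the spread among these pools, estimated partly from the other genes.

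The genes and lists were chosen with earlier results of these data known. Named besides Agt and Agtr1a are the 2 genes most correlated with each. The 3 lists of renin-angiotensin, receptor signalling and Agt regulator genes, and the cell type markers, were fixed by symbol. They were not analysed here: none (0) of the 47357 rows of the RefSeq gene table (GRCr8) lists an Ensembl identifier.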

Additional observations from a re-analysis of the deposited data

How the results depend on the processing

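In the edgeR quasi-likelihood test 0 genes passed the adjusted threshold (1322 had an unadjusted p under 0.05), and the same number did with limma-voom with sample quality weights, the 1 CPM filter, the non-legacy fit, and scaling by RLE, upper quartile or library size. Other analyses made calls: 12 genes were called higher and 16 lower without a low-count filter, 18 and 22 by DESeq2, 15 and 30 by the edgeR exact test, and 3 and 1 with robust dispersions. With the DESeq2 gene filter tuned to 0.1, an analysis chosen after seeing the data, 17 and 21 were called. Leaving out 1 library gave between 0 and 6 higher and between 0 and 11 lower, with the maximum in both directions when control 1 was omitted. The cause was not tested.

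For Agt, DESeq2 alone passed the threshold (log2 fold change 0.13, adjusted p = 0.0409, and 0.0426 with the filter tuned to 0.1). The adjusted p in the other analyses ran from 0.158 to 0.633. The DESeq2 fits without each library were also added after seeing the data. For Agtr1a the adjusted p ran from 0.762 to 0.999. The difference in the log2 ratio of Agt to Agtr1a ran from 0.17 to 0.32 when single libraries were left out, and p from 0.1 to 0.2 in the exact permutation test.

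With the replicate number as a block, 0 genes were higher and 1 lower. The log2 fold change was 0.13 for Agt (adjusted p = 0.505 in edgeR) and -0.12 for Agtr1a (adjusted p = 0.841). Paired sign flips gave p = 0.25 for the ratio in an exact test, the smallest that 3 pairs allow. Deviations from the group means correlated across genes at -0.13, -0.01 and -0.03 between libraries sharing replicate number 1, 2 and 3, and 0 of 6 libraries correlated best with their namesake, so replicate numbers were not taken to pair the pools. Depth limits Agtr1a, with 181 to 219 counts per library, more than Agt.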
